A study of Homo sapiens with 4 samples.

Results

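Homologous recombination repairs a broken chromosome by copying an intact sister molecule, and the Fanconi anemia pathway removes crosslinks that tie the strands of DNA together and hands the resulting break to the same machinery. This account covers 41 human genes of both pathways, chosen by name as mediators, nucleases, helicases, ubiquitin enzymes and checkpoint kinases of these reactions. Of the 41, 36 had a named feature among the 21448 on the array. The other 5, BRCA2, RAD54B, FANCA, FANCD2 and RBBP8, had no named feature here and are not described. Each of the 36 measured genes had 1 feature.

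The cells were HeyA8-MDR, a human ovarian carcinoma line selected for multidrug resistance and grown with 15% serum and 300 ng/ml paclitaxel, a drug that stabilises microtubules. In the design text, 1 group received a control microRNA inhibitor and the other an inhibitor of miR-204-5p, an antisense oligonucleotide that blocks the mature microRNA. The group was read from the sample titles, 2 arrays without and 2 arrays with a miR204 label, since the treatment field of every sample mentions that inhibitor. All 4 arrays therefore come from 1 drug-resistant line, and no source used here gives the inhibitor dose or time. Whether replicates came from separate cultures is not stated, so the p-values reflect array-to-array spread that may be technical.

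The microRNA blocked in this design is shown for its seed, bases 2 to 8 in capitals, the stretch by which a microRNA recognises messenger RNAs. It is 22 bases long and is encoded on the minus strand at chr9:70810031-70810052 (RefSeq, GRCh38.p14). The level of this microRNA was not analysed here, and the success of the block is unknown.
hsa-miR-204-5p: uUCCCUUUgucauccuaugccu

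Homologous recombination works mainly in S and G2 phase, when a sister chromatid is present, and many of its genes are transcribed most strongly in dividing cells. In ovarian carcinoma the pathway is of interest because tumours that lack it are sensitive to platinum drugs and to inhibitors of PARP enzymes. In outline, nucleases resect the broken end, BRCA1 and partner proteins prepare the exposed strand as a protein filament, the filament invades the sister, and helicases and nucleases take the joint molecules apart.

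The values are log2 expression values, each array giving 1 value per feature. Array medians ran from 5.65 to 5.68 in the controls and from 5.59 to 5.61 with the inhibitor, and standard deviations over all features were 2.20 and 2.21 against 2.08 and 2.13. Mesenchymal-type markers were high on every array (list mean 10.28 to 10.34 in the controls, 10.15 to 10.21 with the inhibitor). Of the epithelial list, the keratins KRT7, KRT8 and KRT18 were also high, at the 98.4 percentile of level or above. The keratin KRT19 lay at the 45.8 percentile, and EPCAM and CDH1 lay in the dimmest 25% of features. Ovarian lineage markers averaged 6.64 to 6.69 in the controls and 6.26 to 6.34 with the inhibitor. By level, PAX8 lay at the 87.9 percentile, WT1 at 63.4 and MUC16 at 33.5. List means of 4 measured leukocyte, 5 endothelial and 5 fibroblast markers lay between 4.70 and 5.45 on all arrays, with PTPRC, KDR, TEK, PDGFRB and LUM in the dimmest 25%, but CD68, COL1A2 and CDH5 lay between the 78.7 and 88.2 percentiles. CDH5, a cadherin of endothelial junctions, read 8.13 and 8.06 in the controls, against 7.01 and 7.03 with the inhibitor (-1.075, SE 0.14, limma adjusted p = 0.101; 0.000675 with an intensity trend). Its adjusted p was below that of each of the 36 genes. The other endothelial markers did not share this difference: of the 5, 2 were below 0 and 3 above, with a median of 0.045. PECAM1 (0.47) and VWF (0.045) lay above the controls without overlap, and KDR (0.045) and TEK (-0.11) overlapped. The part of other cell types in the results was not tested.

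Most of the 36 genes had lower values when miR-204-5p was blocked, and the lowest relative to control were MND1, EXO1, BARD1 and CHEK1, which differed by -1.345 to -0.845 log2 units. The difference was below 0 for 31 genes and above 0 for 5, against 59.2% of all features below 0. The median difference was -0.40, while that over all features was -0.07. Both inhibitor arrays lay below both controls for 25 of the 36, or 69.4%, against 33.8% of all features, and above them for 1, ATM, against 16.5%. At an unadjusted p under 0.05 in limma, 18 genes (50%) were lower and 0 higher, against 12.8% and 5.11% of all features. In bulk RNA, fewer cells in a given state and less RNA per cell cannot be told apart.

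No single gene passed limma's threshold of an adjusted p of 0.05 over all features, which 0.0513% of features passed, all of them higher with the inhibitor. The lowest adjusted p among the 36 was 0.124, that of BARD1. With an intensity trend in the prior, which lets the expected spread depend on signal level, 12 genes were lower past the threshold, and 0 higher, against 6.09% and 1.02% of all features. They were CHEK1, EXO1, MND1, BARD1, RMI2, UBE2T, RMI1, MRE11, RAD54L, BRIP1, FANCG and RAD51AP1. With quantile normalization and the trend together, MND1, EXO1, BARD1 and CHEK1 were lower past the threshold and 0 genes higher, against 1.19% and 1.42% of all features. With the dimmer 50% of features left out, 13 of the 29 genes that remained were lower past the threshold and 0 higher, against 8.07% and 1.34% of features. The count of 18 became 11 without control array 1, against 4.30% of all features, and 9 without control array 2, against 2.72%. It was 18 without inhibitor array 1, against 12.4%, and 19 without inhibitor array 2, against 17.5%. With 2 arrays against 2, an exact permutation test of a single value cannot give a p below 0.333, so none was run.

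**Figure D1:**
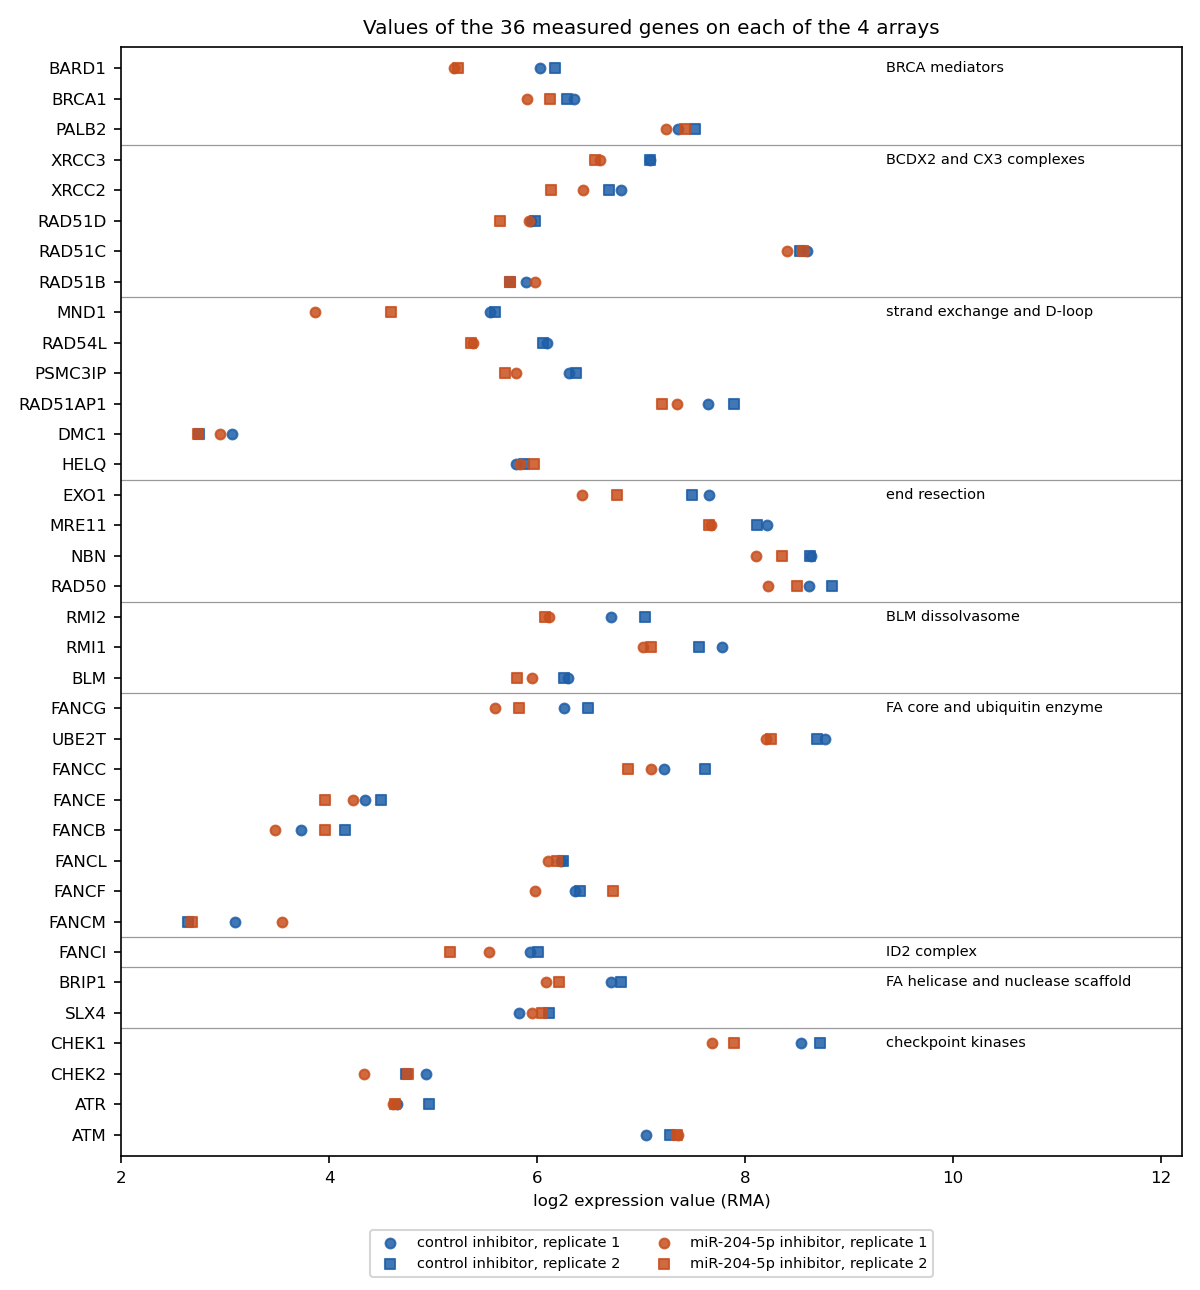
Log2 expression values (x axis) of the 36 measured genes (y axis, grouped by role) on each of the 4 arrays; blue points are the control inhibitor, orange points the miR-204-5p inhibitor, circles replicate 1 and squares replicate 2. Both orange points lie left of both blue points for 25 genes, and right of them for ATM alone.

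Signal level moved with the differences. With features split into 4 bands of near equal size by mean level, the median difference over all features was 0.075 in the dimmest band (mean level up to 3.965), -0.01 in the second, -0.12 in the third and -0.205 in the brightest, and 29 of the 36 genes lay in the upper bands. In the third band, 11 of 20 genes were lower at an unadjusted p under 0.05, against 16.2% of all features there, and in the brightest band 6 of 9, against 22.8%. In the second band it was 1 of 4, MND1, against 9.26%. In the dimmest it was 0 of 3 in limma, against 2.74%; these were FANCB, FANCM and DMC1. The share of features with no overlap between groups also rose with level. Both inhibitor arrays lay below both controls for 15 of the 20 genes in the third band, against 39.5% of features there, and for 7 of the 9 in the brightest, against 61.6%. After quantile normalization, which gives all arrays the same distribution, the median of all features was -0.004 and that of the 36 genes was -0.295. Then 12 were lower at an unadjusted p under 0.05 in limma, against 7.1% of all features. The count higher at that p was 1, ATM, against 1409 of the 21448 features. Both inhibitor arrays lay below both controls for 21 genes, against 23.9% of all features. They lay above both controls for 3, ATM, RAD51C and HELQ, against 4876 of the 21448 features. Quantile normalization turned the sign for PALB2, RAD51C, FANCL and FANCF, which were then between 0.011 and 0.122 above the controls.

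**Figure D2:**
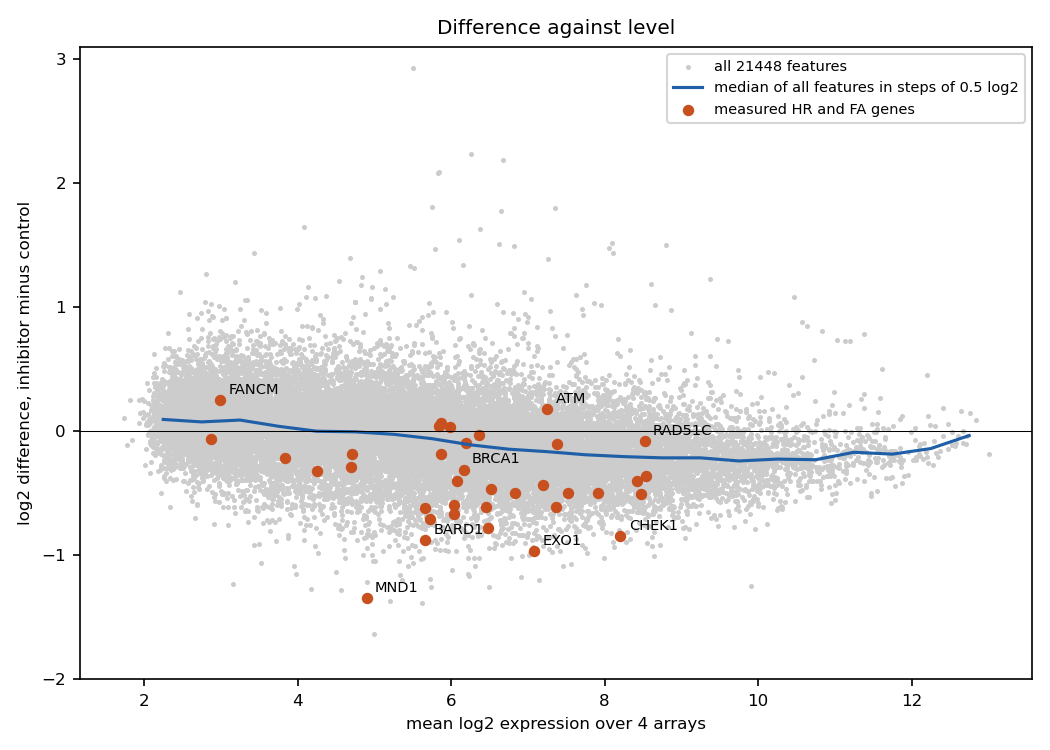
Log2 difference, inhibitor minus control (y axis), against the mean log2 value over 4 arrays (x axis) for all 21448 features (grey) and the 36 measured genes (orange); the blue line is the median of all features in steps of 0.5 log2 units. Most orange points lie below the line, MND1 farthest at -1.345, while others, among them ATM, FANCM and RAD51C, lie above it.

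Promoters are shown for the 6 genes with the strongest statistics that RefSeq's promoter table (GRCh38.p14) held, because genes that differ in the same direction can be set side by side for the letters they share. The table matched 33 of the 36 genes, with 47 windows of 250 bases before and 50 after an annotated start. Each line below runs 5′ to 3′ in the direction of the gene, from 120 bases before its outermost listed start to 20 bases after it. Capitals mark an E2F element, searched in the form TTCCCGC, the form TTGGCGC, the form TTCGCGC and the form TTGCCGC, or a CCAAT box, searched as its 5 letters. Each was searched on both strands, so a CCAAT box on the other strand reads ATTGG. The windows are chr2:214809664-214809803 (minus) for BARD1, chr1:241848084-241848223 (plus) for EXO1, chr4:153344529-153344668 (plus) for MND1, chr11:125626104-125626243 (plus) for CHEK1, chr1:46247568-46247707 (plus) for RAD54L and chr17:61863509-61863648 (minus) for BRIP1.
BARD1: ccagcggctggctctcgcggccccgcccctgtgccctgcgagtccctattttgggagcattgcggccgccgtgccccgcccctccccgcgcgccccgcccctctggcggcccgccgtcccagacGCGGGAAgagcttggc
EXO1: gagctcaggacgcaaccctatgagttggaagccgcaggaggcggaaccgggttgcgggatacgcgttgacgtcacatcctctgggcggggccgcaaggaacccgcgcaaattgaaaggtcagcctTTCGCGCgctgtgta
MND1: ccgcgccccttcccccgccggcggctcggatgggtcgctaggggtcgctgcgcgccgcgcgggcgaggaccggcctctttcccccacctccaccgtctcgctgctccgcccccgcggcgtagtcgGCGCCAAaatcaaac
CHEK1: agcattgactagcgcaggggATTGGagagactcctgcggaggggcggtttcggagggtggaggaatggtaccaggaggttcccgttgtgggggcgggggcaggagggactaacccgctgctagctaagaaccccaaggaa
RAD54L: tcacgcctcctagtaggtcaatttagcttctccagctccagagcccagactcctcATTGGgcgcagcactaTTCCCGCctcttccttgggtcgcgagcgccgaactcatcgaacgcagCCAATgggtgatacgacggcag
BRIP1: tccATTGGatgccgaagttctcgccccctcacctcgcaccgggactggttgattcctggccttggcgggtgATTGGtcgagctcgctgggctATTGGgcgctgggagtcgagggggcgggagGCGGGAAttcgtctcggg

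E2F factors drive genes of S phase, and these letters are the core of their binding element. They were found just after the start in BARD1 (positions 5 to 11), EXO1 (6 to 12), MND1 (6 to 12) and BRIP1 (3 to 9), and 49 to 43 bases before it in RAD54L, and in none of the 3 listed windows of CHEK1. Counted by gene over all its windows, 19 of 33 measured genes (57.6%) held the element, against 2962 of the 14250 genes (20.8%) with both a promoter and a named feature. Among the 15 matched genes that were lower at an unadjusted p under 0.05 it was 12, and among the 18 others 7. Among further genes of the same pathways, listed below and counted whether measured or not, it was 17 of 49 (34.7%). Median GC content was 62.7% in the windows of the 33 genes and 62.7% in those of the 14250. A CCAAT box was found for 17 of the 33 genes (51.5%, against 42.3%). A CHR element, a letter pattern of mitotic gene promoters searched in the form TTTGAA and the form TTCGAA, was found for 5 (15.2%, against 17.5%). The CCAAT box also differed by group, with 10 of the 15 lower genes (66.7%) and 7 of the 18 others (38.9%). For the CHR element it was 2 and 3. Matches of different motifs were counted separately where they overlapped. These counts describe letters in a window and show no binding.

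Among the nucleases and complexes chosen here for resection of a broken end, all 4 measured genes had lower values with the inhibitor. In limma, 3 of them (75%) were lower at an unadjusted p under 0.05, against 12.8% of all features. After quantile normalization it was 1 (25%), against 7.1%. DNA2, a resection nuclease counted instead with the resolvases and dissolution genes below, was not lower. It differed by 0.045 (SE 0.17) with overlap between groups, and by 0.014 with overlap after quantile normalization. EXO1, an exonuclease that carries out long-range resection, read 7.65 and 7.49 in the controls, against 6.43 and 6.77 with the inhibitor. The groups did not overlap, and the higher inhibitor array stayed 0.72 units below the lower control. The difference was -0.97 (SE 0.172, 95% interval -1.379 to -0.561), or 1.96-fold lower (limma adjusted p = 0.134; 0.0042 with the intensity trend). MRE11, the nuclease of the MRN complex that senses and trims the break, read 8.21 and 8.11, then 7.67 and 7.65. Its difference was -0.50 (SE 0.141, adjusted p = 0.184), with both inhibitor arrays close together below the controls. Its partners NBN, which links the complex to ATM, and RAD50, the ATPase that tethers ends, differed by -0.40 (SE 0.154) and -0.36 (SE 0.169). Within each array, MRE11 minus RAD50 was -0.40 and -0.72 in the controls, against -0.55 and -0.85 with the inhibitor, so that this ratio overlapped between groups.

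The BRCA mediators, which help build the filament, had differences from -0.88 to -0.105. BARD1, the partner that stabilises BRCA1 and completes its ubiquitin ligase, read 6.03 and 6.17 in the controls, against 5.20 and 5.24 with the inhibitor. That is a gap between groups several times the spread within either, with a difference of -0.88 (SE 0.144, 95% interval -1.223 to -0.537), or 1.84-fold lower. BRCA1 itself read 6.35 and 6.29 in the controls, against 5.90 and 6.12 with the inhibitor. The groups did not overlap, but the interval of the difference of -0.31 included 0 (SE 0.152, -0.671 to 0.051, limma adjusted p = 0.337). BARD1 minus BRCA1 within an array was -0.32 and -0.12 in the controls, against -0.70 and -0.88 with the inhibitor. PALB2, which bridges BRCA1 to BRCA2, overlapped between groups and differed by -0.105 (SE 0.154; 0.055 after quantile normalization).

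**Figure D3:**
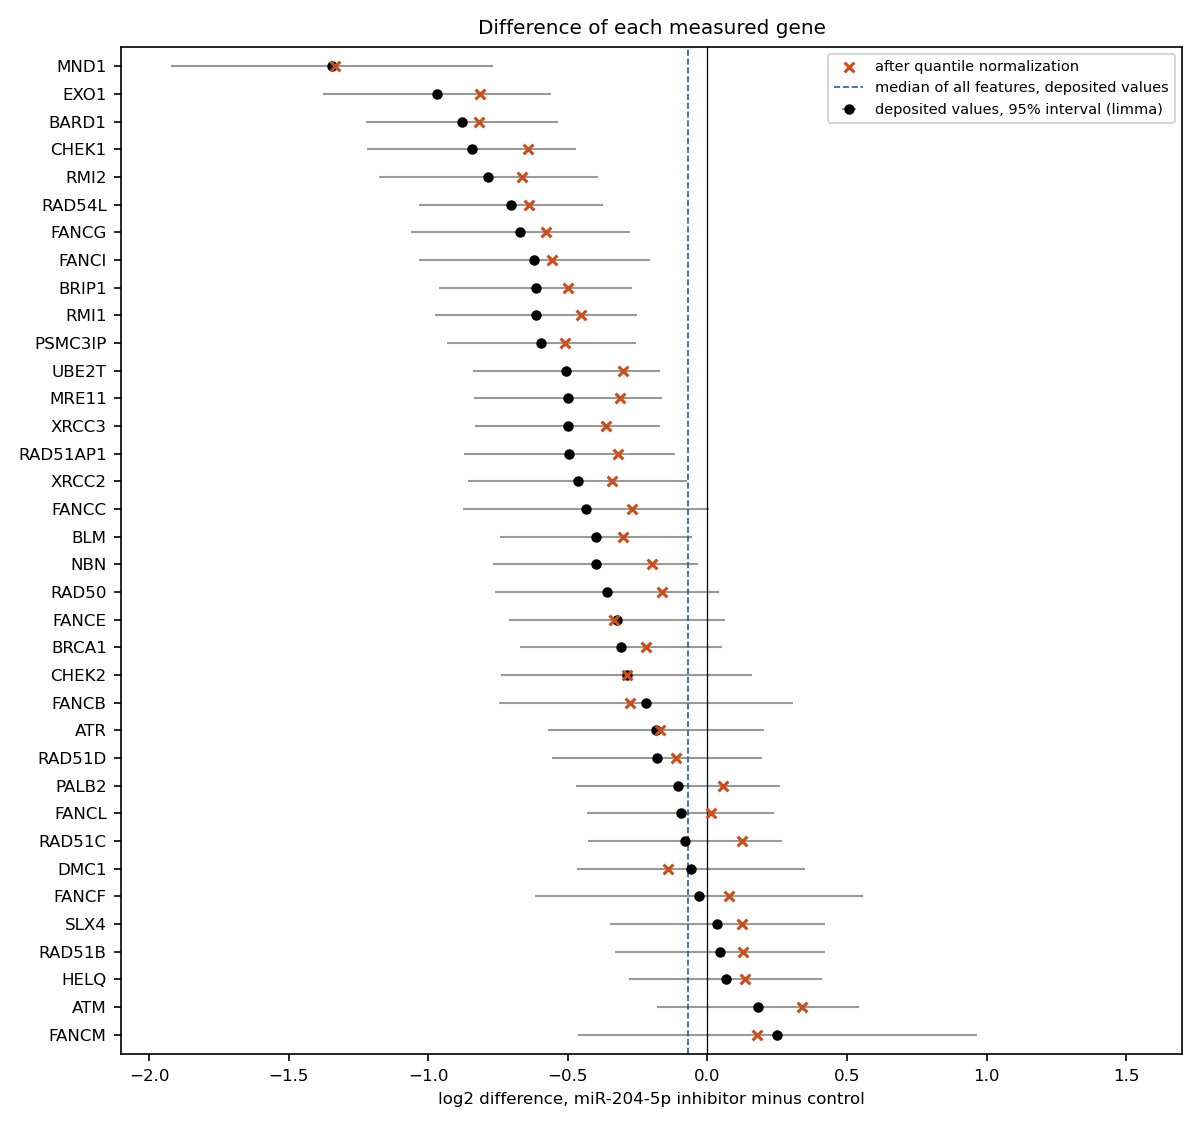
Log2 difference, miR-204-5p inhibitor minus control (x axis), of the 36 measured genes (y axis, in order of the difference); black points and grey bars are the deposited values with 95% limma intervals, orange crosses the values after quantile normalization, and the dashed line the median of all features at -0.07. The intervals of the 18 lowest p-values end below 0, and 9 crosses lie to the right of 0.

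Of the 5 genes of the BCDX2 and CX3 complexes, small ATPases that remodel and stabilise the filament, XRCC3 and XRCC2 had the lower values. XRCC3 read 7.08 and 7.08 in the controls, against 6.60 and 6.56 with the inhibitor, a difference of -0.50 (SE 0.139, adjusted p = 0.181). XRCC2 read 6.81 and 6.69, then 6.44 and 6.13, a difference of -0.465 (SE 0.165, adjusted p = 0.231). Both genes had groups that did not overlap. RAD51D differed by -0.18, RAD51C by -0.08 (0.122 after quantile normalization) and RAD51B by 0.045, and the values of the last pair overlapped between groups. XRCC3 and RAD51C form a complex of their own, and XRCC3 minus RAD51C was -1.51 and -1.45 in the controls against -1.80 and -2.0 with the inhibitor.

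Genes that help the filament invade the sister molecule included the largest difference of the 36. MND1, which with PSMC3IP forms a dimer that stimulates strand exchange and is best known from meiosis, read 5.55 and 5.59 in the controls. It read 3.86 and 4.59 with the inhibitor, a difference of -1.345 (SE 0.242, 95% interval -1.921 to -0.769), or 2.54-fold lower (limma adjusted p = 0.134). The inhibitor arrays lay far below the controls but 0.73 apart from each other, and the lower one was at a level of the dimmest band, so the size is uncertain. Without inhibitor array 1 the difference was -0.98, and without inhibitor array 2 it was -1.71. PSMC3IP read 6.31 and 6.37, then 5.80 and 5.69, a difference of -0.595 (SE 0.143). RAD54L, the motor that drives filament invasion and remodels the joint, had the tightest arrays of this set, at 6.09 and 6.06, then 5.38 and 5.36. Its difference was -0.705 (SE 0.139, adjusted p = 0.144), or 1.63-fold lower. RAD51AP1, which stimulates joint formation, read 7.64 and 7.89, then 7.34 and 7.20 (-0.495, SE 0.159). The other two, the helicase HELQ (0.065) and the meiotic recombinase DMC1 (-0.06), overlapped between groups, and DMC1 lay at a mean level of 2.875, in the dimmest band.

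The 3 genes chosen here from the complex that dissolves joint molecules without crossing over had lower values at an unadjusted p under 0.05. In limma, 12.8% of all features were lower at that p. After quantile normalization 2 of the 3 were, all but BLM, against 7.1% of all features. RMI2, a scaffold subunit, read 6.71 and 7.04 in the controls, against 6.11 and 6.07 with the inhibitor (-0.785, SE 0.165, adjusted p = 0.149). RMI1, the scaffold that binds the topoisomerase, read 7.78 and 7.56, then 7.02 and 7.09 (-0.615, SE 0.152). BLM, the helicase mutated in Bloom syndrome, had a difference of -0.40 (SE 0.144). None of the 3 overlapped between groups in the deposited values, where 33.8% of all features were lower without overlap. The same held after quantile normalization, against 23.9%. RMI2 minus RMI1 within an array overlapped. TOP3A, the topoisomerase of this complex, is counted below with the further pathway genes. It differed by -0.295 (SE 0.167, limma unadjusted p = 0.121) without overlap, and by -0.144 with overlap after quantile normalization.

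Among the Fanconi anemia genes, UBE2T, FANCG, FANCI and BRIP1 had the lower values. In its core, a ubiquitin ligase of several subunits uses the conjugating enzyme UBE2T to mark FANCI and FANCD2. Nucleases downstream of the marked pair cut the crosslink. UBE2T read 8.77 and 8.69 in the controls, against 8.20 and 8.25 with the inhibitor (-0.505, SE 0.141, limma adjusted p = 0.182). FANCG, a core scaffold subunit, read 6.26 and 6.49, then 5.59 and 5.82 (-0.67, SE 0.164, adjusted p = 0.166). Both had groups that did not overlap. FANCI, a substrate of the ligase, read 5.93 and 6.01, then 5.54 and 5.16, with the inhibitor arrays farther apart than the controls (-0.62, SE 0.174). Other core subunits differed by less: FANCC by -0.435 (SE 0.184) and FANCE by -0.325 (SE 0.163), both without overlap, and FANCB by -0.22, with overlap. FANCL, the catalytic subunit, differed by -0.095 and was 0.011 after quantile normalization. FANCF differed by -0.03, with inhibitor arrays 0.75 apart, and FANCM, the DNA translocase that recruits the core, by 0.25 (SE 0.30) at a level in the dimmest band. Of the 8 measured genes of the core and its conjugating enzyme, 2 (25%) were lower at an unadjusted p under 0.05, against 12.8% of all features, and the median was -0.27. After quantile normalization it was 1 (12.5%), against 7.1%.

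Downstream of the marked pair, BRIP1 and SLX4 had differences of -0.615 and 0.035. BRIP1, a helicase that binds BRCA1, read 6.71 and 6.81 in the controls, against 6.08 and 6.21 with the inhibitor (-0.615, SE 0.145, limma adjusted p = 0.161). SLX4, the scaffold for crosslink-cutting nucleases, overlapped between groups and differed by 0.035 (SE 0.162, 95% interval -0.350 to 0.420). BRIP1 minus SLX4 was 0.89 and 0.70 in the controls against 0.13 and 0.16 with the inhibitor.

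The checkpoint kinases, which halt the cell cycle on damage or stalled replication, had differences from -0.845 to 0.18. CHEK1, the effector kinase that ATR activates and that S phase cells need, read 8.54 and 8.72 in the controls, against 7.68 and 7.89 with the inhibitor. The groups were separated by 0.65 units, and the difference was -0.845 (SE 0.158, 95% interval -1.220 to -0.470), or 1.80-fold lower (limma adjusted p = 0.137; 0.0028 with the intensity trend). ATM, the kinase that responds to breaks, read 7.05 and 7.28 in the controls, against 7.35 and 7.34 with the inhibitor. In the deposited values it alone among the 36 had both inhibitor arrays above both controls, by 0.06 units at the closest. Its difference was 0.18 (SE 0.152, interval -0.182 to 0.542, limma adjusted p = 0.564). After quantile normalization that difference was 0.339, and RAD51C and HELQ also had both inhibitor arrays above both controls. CHEK2, the effector of ATM, differed by -0.29 (SE 0.188) with overlap, and ATR by -0.185 (SE 0.162) without. CHEK1 minus ATR within an array was 3.89 and 3.76 in the controls, against 3.07 and 3.26 with the inhibitor, and ATR minus ATM was -2.40 and -2.32, then -2.74 and -2.71.

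**Figure D4:**
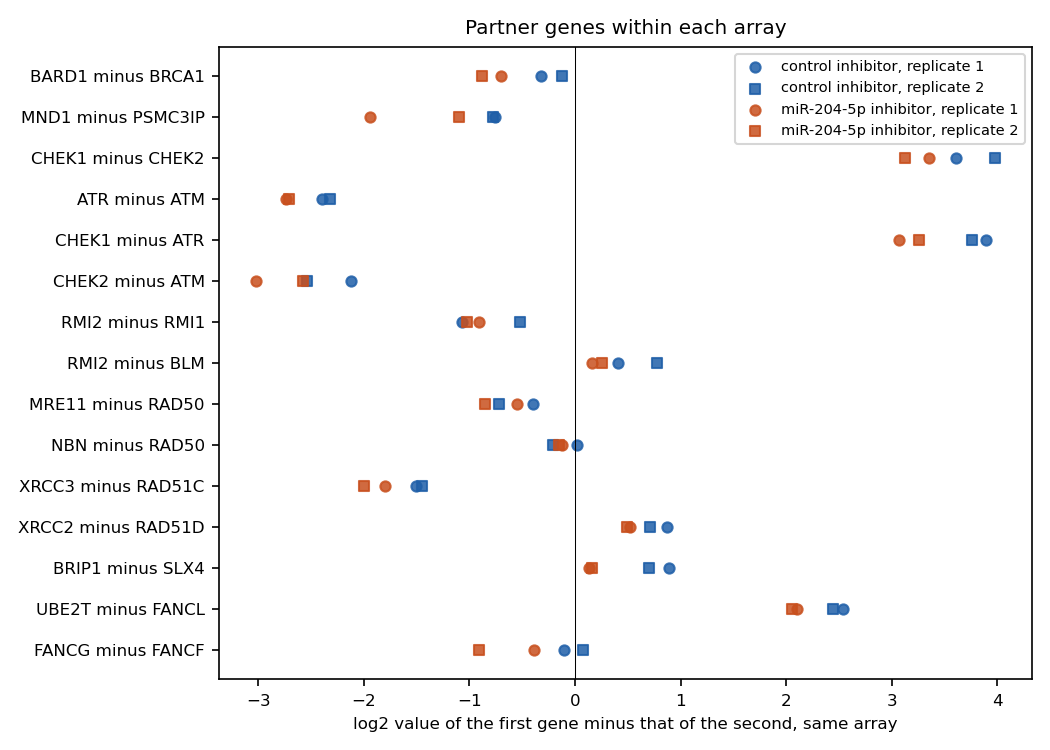
Log2 value of the first gene minus that of the second on the same array (x axis) for 15 pairs of partner genes (y axis); blue points are the control inhibitor, orange points the miR-204-5p inhibitor, circles replicate 1 and squares replicate 2. The points of BRIP1 minus SLX4 sit at 0.89 and 0.70 in the controls and at 0.13 and 0.16 with the inhibitor, whereas those of NBN minus RAD50 overlap.

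These 15 pairs and the order of the genes in them were picked after the values had been seen, and they are given as values with no test. Values of 12 pairs were lower with the inhibitor without overlap, and those of RMI2 minus RMI1, MRE11 minus RAD50 and NBN minus RAD50 overlapped between groups. A difference within an array takes out a shift common to both genes, but the shift over all features varied with level, so genes of different level need not share it.

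Further genes of the same pathways also had mostly lower values. Of 57 listed, 51 were measured. A difference below 0 was found for 43 (84.3%, against 59.2% of all features) and above 0 for 8, and the median was -0.295. Both inhibitor arrays lay below both controls for 37 of them (72.5%, against 33.8% of all features). After quantile normalization that was so for 25 (49%, against 23.9%), and both lay above for 6, against 4876 of the 21448 features. By median level these genes lay at the 69.5 percentile, in the third band, where 39.5% of features were lower without overlap in the deposited values. At an unadjusted p under 0.05 in limma 20 were lower (39.2%, against 12.8% of all features) and 0 higher, and 0 passed the threshold over all features. That count was 11 after quantile normalization, against 7.1% of all features, 6 without control array 1, against 4.30%, and 5 without control array 2, against 2.72%. ABRAXAS1, the scaffold of a BRCA1 complex that binds ubiquitin at breaks, had the largest difference of these, close to that of MND1, at 6.26 and 6.36 in the controls, against 5.21 and 4.64 with the inhibitor (-1.385, SE 0.209, adjusted p = 0.120). MMS22L, which acts at stalled forks, differed by -0.775 (SE 0.149), and USP1, which removes ubiquitin from FANCD2 and FANCI, by -0.77 (SE 0.185). The strand-binding subunit RPA3 (-0.695), the histone variant H2AX (-0.56) and SHLD2, a subunit of shieldin, which limits resection (-0.58), were also lower. By role, the 3 strand-binding RPA genes and all 9 measured Fanconi anemia accessory genes had differences below 0, with medians of -0.44 and -0.28. Of 16 filament regulators 14 were below 0 (median -0.33), of 14 genes of chromatin signalling at breaks 11 (median -0.31) and of 9 resolvases and dissolution genes 6 (median -0.23). That last share, 66.7%, lay near the 59.2% of all features. After quantile normalization the medians of these roles, in the order named, were -0.34, -0.158, -0.174, -0.127 and -0.089.

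Other DNA repair pathways are set beside these for comparison, with no test between lists. End joining, which rejoins ends without a template, had a median of -0.22 over 10 measured genes, with 2 lower at an unadjusted p under 0.05, PRKDC (-0.41) and NHEJ1 (-0.42). Nucleotide excision repair, which removes bulky lesions, had a median of -0.235 over 16 genes with 3 lower, among them ERCC8 (-0.575) and GTF2H3 (-0.525). Base excision repair, which replaces single damaged bases, had a median of -0.29 over 20 genes with 9 lower, led by APEX2 (-0.90) and PARP1 (-0.77). Mismatch repair had a median of -0.385 over 5 genes with 2 lower, MSH6 (-0.94) and MSH3 (-0.835). The share of all features lower at that p was 12.8%, against 20% of the end joining, 18.8% of the nucleotide excision, 45% of the base excision and 40% of the mismatch repair genes. In these lists 0 genes were higher at that p and 0 passed limma's threshold. With the intensity trend, 2 end joining, 1 nucleotide excision, 7 base excision and 2 mismatch repair genes were lower past it. That compares with 12 of the 36 genes and 6.09% of all features. Both inhibitor arrays lay below both controls for 70%, 56.2%, 65% and 40% of these lists, in the same order. That compares with 69.4% of the 36 genes, 33.8% of all features, and 39.5% and 61.6% of those in the third and brightest bands. By median level the lists lay at the 74.8, 78.1, 70.4 and 70 percentiles. After quantile normalization the median differences were -0.07 for end joining, -0.072 for nucleotide excision, -0.162 for base excision and -0.374 for mismatch repair. For the 36 genes it was -0.295. Then 0 end joining, 2 nucleotide excision, 7 base excision and 2 mismatch repair genes were lower at that p, against 7.1% of all features. Both inhibitor arrays then lay below both controls for 40%, 43.8%, 50% and 40% of these lists. That compares with 58.3% of the 36 genes and 23.9% of all features.

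**Figure D5:**
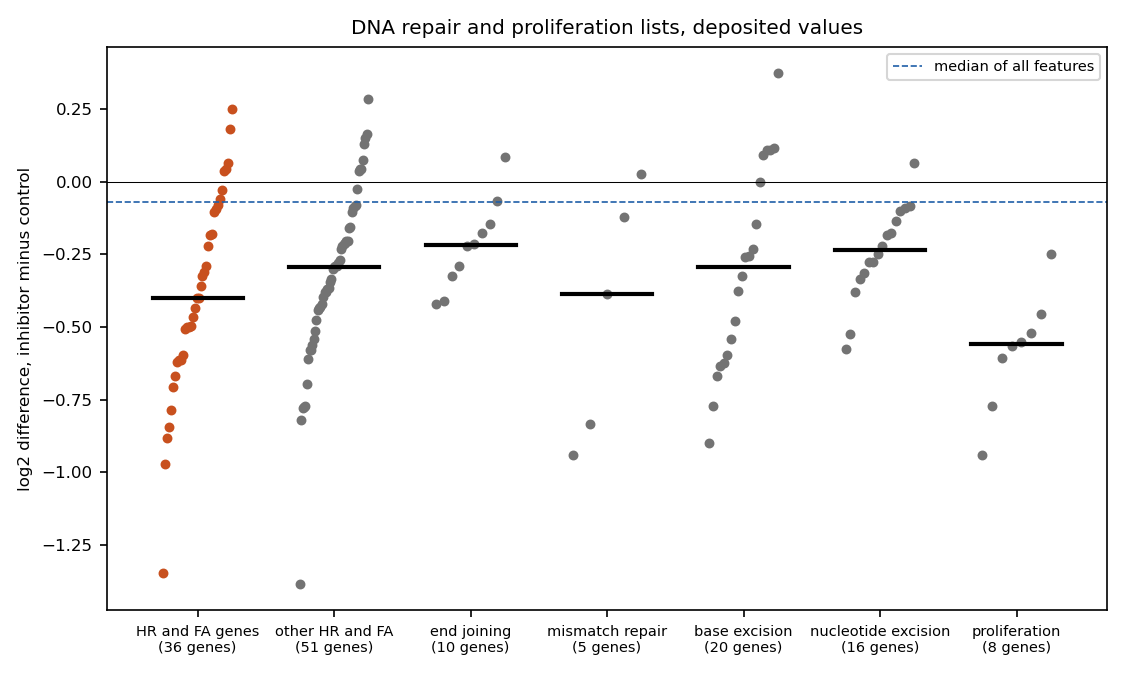
Log2 difference, inhibitor minus control (y axis), of each gene (points) in the 36 homologous recombination and Fanconi anemia genes (orange) and in 6 other lists (grey), with list medians as black bars and the median of all features as a dashed line. The median bar of the 36 genes is at -0.40, that of end joining at -0.22 and that of 8 proliferation genes at -0.56.

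Genes of cell proliferation also had lower values. All 8 listed had both inhibitor arrays below both controls, against 33.8% of all features and 61.6% of those in the brightest band; the median level of the 8 was at the 94.4 percentile. After quantile normalization it was 7, with AURKA overlapping, against 23.9%. The 8 differences had a median of -0.56 (-0.336 after quantile normalization), and the mean level of the 8 genes was 9.12 and 9.27 in the controls, against 8.55 and 8.67 with the inhibitor. MKI67, a marker of cycling cells, differed by -0.55 (SE 0.145), PCNA, the replication clamp, by -0.565 (SE 0.147), MCM2, a subunit of the replicative helicase, by -0.455 (SE 0.157), and E2F1, a transcription factor of S phase, by -0.94 (SE 0.175). The mean of the 36 genes was 6.445 and 6.495 in the controls, against 6.06 and 6.10 with the inhibitor. The part of cell proliferation in the lower values of the repair genes was not tested.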

How the data were processed

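Total RNA of 4 samples was labelled and hybridised to 1-colour Affymetrix Human Clariom S arrays. Per the submitters' processing notes, the authors made the deposited log2 expression values with Transcriptome Analysis Console 4.0 and RMA, which corrects background, normalizes between arrays and summarises probes. No source used here gives its parameters or genome build. Detection was not analysed, so a low value may be background.

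Gene symbols came from the platform annotation, which named 17709 of 21448 features, and the brightest feature stood for a gene. All features and 4 arrays were fitted with limma 3.58.1 in R 4.3.3 (lmFit, eBayes, no block), with 2 residual and 4.78 prior degrees of freedom, Benjamini-Hochberg adjustment over all features and a threshold of 0.05. The procedure was tested on simulated data. The number of arrays limits the precision.

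The members and lists were chosen with earlier results of these data known. Array values were given for BRCA1, CHEK1, ATM and the 16 members with the largest moderated statistic, and for ABRAXAS1 and CDH5, which were chosen after their values were seen. Further pathway genes named were the 6 with the largest statistic, with TOP3A and DNA2 added after their values were seen. From each other repair list, 2 genes were named. A further pathway gene, which the rule named whatever its value, is not reported here. Alternatives were an intensity trend, a robust prior, the replicate number as a block, quantile, median and cyclic loess normalization, filters on dim features, averaging features of a symbol, and leaving out each array. Sequences came from RefSeq tables (GRCh38.p14).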

Additional observations from a re-analysis of the deposited data

How the results depend on the processing

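The median of the 36 genes stayed below 0 under every setting run, at -0.465 to -0.29. It was -0.295 after quantile normalization, with or without the intensity trend, -0.29 after cyclic loess, -0.335 with equal array medians and -0.465 without the dimmest 50% of features. Leaving out 1 array gave -0.465 to -0.378. The number of the 36 past limma's adjusted threshold was 0 in the main fit, 12 with the intensity trend, 4 with quantile normalization and trend together and 13 without the dimmest 50%, which tests fewer features. It was 0 whichever array was left out, where fewer degrees of freedom remain. The number lower at an unadjusted p under 0.05 was 9 to 19 with 1 array left out.

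Over the whole table, 11 features passed, against 1525 with the trend, 559 with quantile normalization and trend, 38 without the dimmest 25%, 1011 without the dimmest 50% and 0 after quantile normalization. It was 0 to 0 with 1 array left out. With the replicate number as a block 0 features passed, at 1 residual degree of freedom. The 36 differences are the same in that fit. At an unadjusted p under 0.05, 17 of the 36 genes were lower, against 2285 of the 21448 features. Nothing in the labels says that equal numbers pair samples, and deviations of same-numbered arrays from their group means had a correlation of 0.006 over all features.

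Of the 51 further pathway genes, 10 were lower past the threshold with the trend, against 6.09% of all features. With quantile normalization and trend it was 4, against 1.19%. Without the dimmest 50%, 7 of the 43 that remained passed, against 8.07% of features lower and 1.34% higher. Those lower at an unadjusted p under 0.05 numbered 11 after quantile normalization, 12 after cyclic loess and 5 to 20 with 1 array left out. Their median was -0.149 after quantile normalization (also with the trend) and -0.144 after cyclic loess, and -0.34 to -0.27 with 1 array left out. In the order quantile normalization, with or without trend, then cyclic loess, medians were -0.07 and -0.05 for end joining, -0.162 and -0.154 for base excision and -0.072 and -0.077 for nucleotide excision. Equal array medians gave -0.153 for end joining and -0.228 for base excision, and mismatch repair had -0.835 without the dimmest 50%. With 1 array left out they were -0.288 to -0.153 for end joining, -0.378 to -0.273 for base excision, -0.31 to -0.148 for nucleotide excision and -0.68 to -0.09 for mismatch repair.

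No sign turned under these settings for the 18 genes lower at an unadjusted p under 0.05. After quantile normalization, with or without the trend, PALB2 was at 0.055, RAD51C at 0.122, FANCF at 0.077 and FANCL at 0.011. After cyclic loess PALB2 was at 0.07, RAD51C at 0.129, FANCF at 0.088 and FANCL at 0.012. With equal array medians DMC1 was at 0.005 and FANCF at 0.035. With 1 array left out the ranges that cross 0 were -0.215 to 0.095 for DMC1, -0.11 to 0.18 for SLX4, -0.075 to 0.165 for RAD51B, -0.46 to 0.02 for FANCB, -0.405 to 0.345 for FANCF, -0.185 to 0.685 for FANCM and -0.005 to 0.135 for HELQ. Apart from the number of features tested or of arrays, the cause of these shifts was not tested. The robust prior moved none of the counts or medians by over 1.5 times. Each gene of these lists had 1 feature, so averaging the features of a symbol could not change its value.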
